A study of Mus musculus with 6 samples.

Results

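The 9 genes described here encode the giant filament proteins titin (Ttn) and nebulin (Neb), nebulette (Nebl), obscurin-like 1 (Obsl1), the 3 myomesins (Myom1, Myom2, Myom3) and the myosin-binding proteins Mybpc1 and Mybph. They were taken by gene symbol from a count table of 55804 gene rows, each symbol matched 1 row, and all 9 passed the filter on low counts that left 14651 genes for testing. The table comes from RNA-seq of C2C12 cells, a mouse myoblast line that fuses into contractile myotubes when serum is withdrawn. The 3 Ctrl-gRNA libraries carried a control guide RNA and are labelled WT, and the 3 Prr33-gRNA libraries carried a CRISPR/Cas9 guide RNA against Prr33 and are labelled as PRR33 knocked down. All 6 came from cells grown in 20% fetal bovine serum and then kept for 3 days in differentiation medium with 2% horse serum. Neither the guide sequence nor the number of derived lines per guide is given in the labels, so an effect of the guide and a difference between lines cannot be told apart, and the p-values measure the spread between libraries, which may be technical.

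A sarcomere is built from interlocking thick myosin filaments and thin actin filaments. Titin reaches from the Z-disc, where thin filaments are anchored, to the M-band, where thick filaments are cross-linked, and acts as a molecular spring and a scaffold. Nebulin lies along the thin filament and stabilises it, and nebulette is its shorter relative, best known from heart muscle. Myomesins bridge neighbouring thick filaments at the M-band, obscurin-like 1 joins myomesin to titin there, and the myosin-binding proteins C and H sit on the thick filament at some distance from the M-band.

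Total counts ran from 17006381 to 19471762 per library, and levels are given as CPM, the usual counts-per-million unit, scaled by the trimmed mean of M values. A floor of 3 counts equals 0.150 to 0.182 CPM. The target gene Prr33 was lowered but not absent at the level of gene counts, with 1137, 990 and 913 counts in the controls, 793, 829 and 848 under the Prr33 guide, and a log2 fold change of -0.42. Of 7 tested markers of differentiated muscle cells 6 fell and 1, Ckm, rose, where 26.6% of all tested genes fell and 25.5% rose. The list's summed level was 25826 to 26257 CPM in Ctrl-gRNA and 14241 to 15025 CPM in Prr33-gRNA. Of 4 markers of undifferentiated myoblasts Myf5 rose and Id1, Id3 and Pax7 fell, and the summed level was 88.7 to 90.6 CPM against 152 to 164 CPM. The other lists that could mark different cells also moved. Tested fibroblast markers all fell (4 of 4, from a list of 6; Lum at 0), with summed levels of 1257 to 1362 against 782 to 846 CPM, and 2 of 2 tested smooth muscle markers fell (from a list of 5), from 5936 to 5945 down to 4797 to 4939 CPM. Of the 4 tested heart muscle markers (from a list of 9) 3 fell, and the sums were 1782 to 1870 against 1125 to 1228 CPM. Their part in the results on the 9 genes was not tested. Endothelial markers summed to at most 1.46 CPM in any library and leukocyte markers to at most 1.82 CPM, with Ptprc and Adgre1 at 0 throughout. In the heart list Myl7 had 0 counts, and Nppa, Nppb, Nkx2-5 and Ryr2 had at most 6 counts in any library. Tnnt2, Myh6 and Gata4 were detected, at means of 1761, 30.9 and 29.3 CPM in Ctrl-gRNA. Their means in Prr33-gRNA were 1174, 1.81 and 10.3 CPM. Tnni3 was low, at 0.770 and 0.444 CPM. In these bulk samples, fewer myotubes and less RNA per myotube cannot be told apart.

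Among the 9 genes 7 fell and 2 rose (edgeR quasi-likelihood test, Benjamini-Hochberg adjusted p below 0.05), where 26.6% of all tested genes fell, 25.5% rose and 52.1% were called in either direction. Mybph, Obsl1, Myom2, Myom1, Myom3, Neb and Ttn were lower in the Prr33-gRNA libraries, and Mybpc1 and Nebl were higher. Their log2 fold changes (Prr33-gRNA minus Ctrl-gRNA) ran from -1.24 for Mybph to 2.31 for Mybpc1, with a median of -0.34, beside a median of -0.0023 over all tested genes. For all 9 genes the 3 libraries of a group lay entirely to one side of the other group, which was so for 57.9% of tested genes (29.3% lower and 28.6% higher). Mybph was the gene of the 9 that fell at least 2-fold, as 7.96% of tested genes did, and Nebl and Mybpc1 rose at least 2-fold, as 2.91% did. In sum the 9 genes took 0.960% ± 0.00664 of all counts in the controls, against 0.707% ± 0.0303 under the Prr33 guide (SD, n = 3 each). The 7 genes that fell were the 7 with the highest counts, and the 2 that rose were the least abundant in either group.

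**Figure D1:**
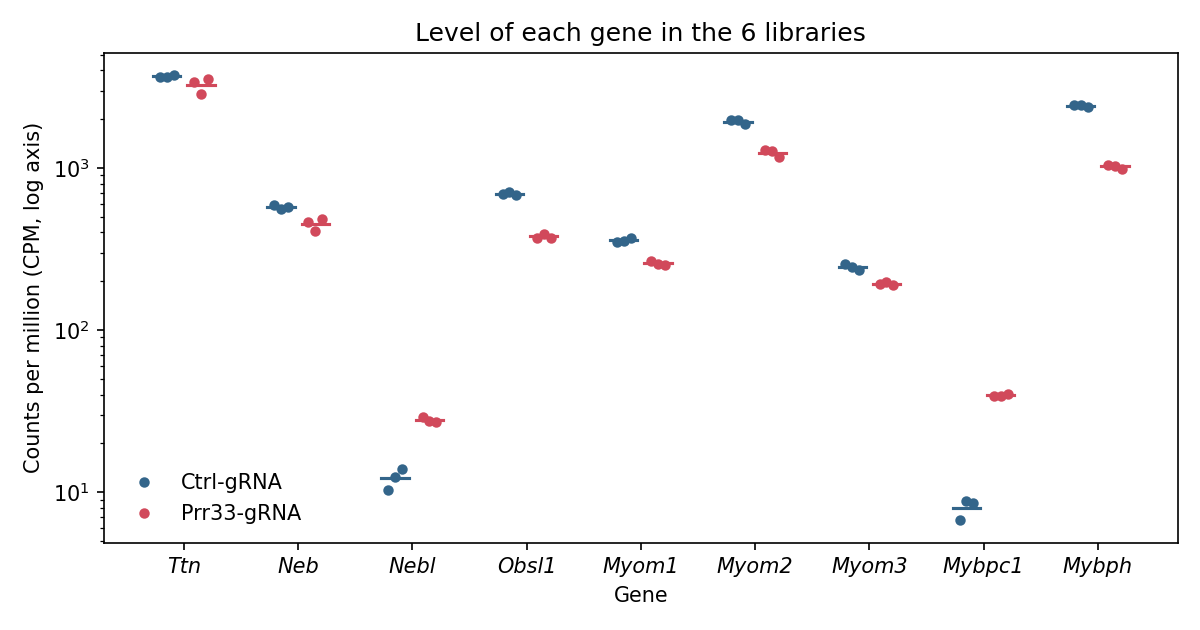
CPM of each gene (log axis) in the 6 libraries; points are libraries and bars are group means. The 2 genes at the bottom, Nebl and Mybpc1, were higher in Prr33-gRNA (red) than in Ctrl-gRNA (blue), and the other 7 were lower.

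Titin was the most abundant of the 9 by counts and changed least. Its level was 3658, 3653 and 3728 CPM in the Ctrl-gRNA libraries and 3389, 2858 and 3530 CPM in the Prr33-gRNA libraries. The Prr33-gRNA libraries were all lower, but 2 of them lay close to the control range and replicate 2 lay far below it. The log2 fold change was -0.18 (SE 0.07, 95% interval -0.32 to -0.03; edgeR adjusted p = 0.0492), just under the threshold. Without Prr33-gRNA replicate 2 the log2 fold change was -0.09 and the call was lost (edgeR adjusted p = 0.0516). It was also lost without Ctrl-gRNA replicate 1 (edgeR adjusted p = 0.0777) or Ctrl-gRNA replicate 3 (edgeR adjusted p = 0.177), in DESeq2 (adjusted p = 0.103) and when libraries were scaled by size alone (edgeR adjusted p = 0.236). Over all alternatives the adjusted p of Ttn ran from 1.42e-04 to 0.236. Ttn (ENSMUSG00000051747) occupies positions 76703980 to 76982547 of chromosome 2 (mm10, minus strand), and its longest annotated coding transcript has 106824 bases in 347 exons. The 21 coding transcripts in GENCODE M21 share 1 count, so a change between titin isoforms would not be seen here.

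Nebulin fell by more than titin. Neb had 589, 555 and 575 CPM in Ctrl-gRNA and 465, 409 and 483 CPM in Prr33-gRNA, and again replicate 2 was the lowest of the Prr33-gRNA libraries. This was a log2 fold change of -0.34 (SE 0.05; edgeR adjusted p = 1.25e-06), which became -0.27 (edgeR adjusted p = 2.91e-06) without Prr33-gRNA replicate 2. Within each library the ratio of Neb to Ttn FPKM (values scaled to gene length and library size, as deposited) was 0.685 ± 0.0204 in Ctrl-gRNA and 0.612 ± 0.0152 in Prr33-gRNA (SD, n = 3 each), without overlap. The exact two-sided permutation test of this ratio gave p = 0.1, the smallest that 3 against 3 libraries allow. Neb (ENSMUSG00000026950) occupies 52136647 to 52378474 of the same chromosome and strand.

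Nebulette moved the opposite way to nebulin, its closest relative here. Nebl had 10.3, 12.5 and 13.8 CPM in Ctrl-gRNA and 29.2, 27.4 and 27.1 CPM in Prr33-gRNA, from 191, 206 and 232 counts against 537, 496 and 542. The lowest Prr33-gRNA library was above the highest control. This 2.29-fold rise had a log2 fold change of 1.20 (SE 0.10; edgeR adjusted p = 3.29e-12). The ratio of Nebl to Neb FPKM went from 0.0374 ± 0.00593 to 0.109 ± 0.00972 (SD, n = 3 each), 2.92-fold higher, so that nebulin transcript still exceeded nebulette in every library. Nebl (ENSMUSG00000053702) spans 387556 bases of chromosome 2 (17343909 to 17731464, minus strand). RefSeq lists 4 starts for it, at 330, 61299, 205334 and 268608 bases inside the gene's upstream end. The gene also encodes a short LIM-domain protein found outside the sarcomere, and gene counts do not show which start or product the added reads came from.

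The other members of the nebulin family and the regulators of thin filament length mostly fell. Of the 10 genes in this list 8 fell, 1 rose and 1 did not pass, with a median log2 fold change of -0.59. Over all tested genes 26.6% fell and 25.5% rose. Nrap, a nebulin-related protein of growing myofibrils, fell from 440 ± 5.85 to 183 ± 8.60 CPM (SD, n = 3 each; log2 fold change -1.27). Klhl40, which stabilises nebulin, fell from 111 ± 5.25 to 58.6 ± 3.49 CPM (SD, n = 3 each; -0.92), and the leiomodins Lmod3 and Lmod2 fell by 0.66 and 0.64 on the log2 scale. Cfl2, the muscle cofilin, was the gene that rose (0.27). The falls of Lasp1 (-0.16) and Kbtbd13 (-1.37, at a mean under 1 CPM in either group) were each lost in some settings: Lasp1 without replicate 1 of either group, under library-size scaling and on both FPKM scales, Kbtbd13 in DESeq2, at an adjusted p below 0.01 and without Ctrl-gRNA replicate 3, Prr33-gRNA replicate 1 or Prr33-gRNA replicate 2.

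At the M-band, all 3 myomesins and obscurin-like 1 fell, by unequal amounts. Obsl1 had 692, 710 and 677 CPM in Ctrl-gRNA and 372, 394 and 370 CPM in Prr33-gRNA, a wide gap beside the spread within either group. It fell by 0.87 on the log2 scale (SE 0.04; edgeR adjusted p = 7.33e-19). Myom2, the M-protein of fast fibres, had 1972, 1968 and 1854 CPM against 1283, 1264 and 1172 CPM, with a log2 fold change of -0.64 (SE 0.04; edgeR adjusted p = 3.70e-15). Myom1, the myomesin found in all striated muscle, had 348, 355 and 370 CPM against 268, 255 and 253 CPM (-0.47, SE 0.04; edgeR adjusted p = 3.08e-11). Myom3 had 255, 246 and 233 CPM against 193, 198 and 188 CPM (-0.34, SE 0.05; edgeR adjusted p = 7.80e-08). Of the 10459 exonic bases of Myom1, 207 are also exonic in Myl12a, a myosin light chain gene on the other strand with 4024 to 4837 counts per library beside 4615 to 6430 for Myom1. With no strand setting given in the sources used here, reads from these bases may have gone to either gene or been left out. The most abundant myomesin was the one with the deepest fall.

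The make-up of the myomesin pool shifted slightly. By FPKM, Myom2 supplied 74.5% ± 0.507 of the 3 myomesins in Ctrl-gRNA and 71.2% ± 0.592 in Prr33-gRNA (SD, n = 3 each). Myom3 supplied 13.8% ± 0.296 and 16.2% ± 0.447 (SD, n = 3 each), and these groups did not overlap either (exact permutation p = 0.1 for both). The share of Myom1 was 11.7% ± 0.704 and 12.6% ± 0.346 (SD, n = 3 each) with overlapping libraries (exact permutation p = 0.2). Myom2 therefore remained the main myomesin transcript in every library.

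**Figure D2:**
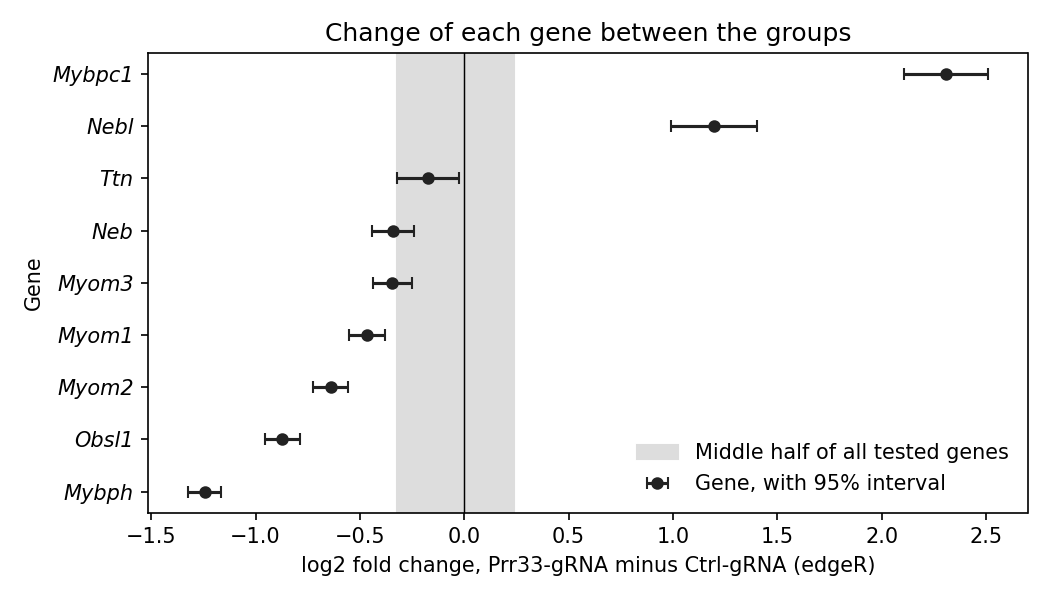
Log2 fold change of each gene with its 95% interval (edgeR); the grey band holds the middle 50% of all tested genes, from -0.32 to 0.24. Ttn lies inside the band, Neb and Myom3 at its lower edge, and Mybph, Obsl1, Myom2, Myom1, Nebl and Mybpc1 outside it.

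The myosin-binding proteins gave both the deepest fall and the highest rise. Mybph, a short relative of the C proteins, had 2440, 2429 and 2378 CPM in Ctrl-gRNA and 1039, 1034 and 989 CPM in Prr33-gRNA. The groups were far apart and each was tight. This 2.37-fold fall is -1.24 on the log2 scale (SE 0.04; edgeR adjusted p = 4.45e-24). Mybpc1, the C protein first known from slow fibres, had 6.71, 8.79 and 8.64 CPM in Ctrl-gRNA and 39.2, 39.3 and 40.6 CPM in Prr33-gRNA, from 124, 145 and 145 counts against 721, 710 and 811. It rose 4.95-fold, or 2.31 on the log2 scale (SE 0.10; edgeR adjusted p = 2.85e-20). Mybpc2, the fast-fibre C protein, fell from 26.0 ± 1.64 to 2.47 ± 0.649 CPM (SD, n = 3 each; -3.40), so that Mybpc1 lay below Mybpc2 in Ctrl-gRNA and above it in Prr33-gRNA, by CPM and by FPKM (1.76 ± 0.258 and 7.14 ± 0.449 FPKM against 8.74 ± 0.147 and 0.681 ± 0.181 FPKM; SD, n = 3 each). The heart form Mybpc3 had at most 4 counts in any library, and Mybphl had 0. The ratio of Mybpc1 to Mybph FPKM rose 11.8-fold, from 0.00171 ± 0.000261 to 0.0200 ± 0.000949 (SD, n = 3 each; exact permutation p = 0.1), and Mybph stayed the more abundant in every library.

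Mybph (ENSMUSG00000042451) occupies 134193448 to 134201232 of chromosome 1 (plus strand), and 1162 of its 2329 exonic bases are also exonic in Adora1, an adenosine receptor gene on the other strand. The limit on strand given for Myom1 applies to these bases too. Adora1 was far lower than Mybph, with 316, 316 and 317 counts in the controls and 170, 146 and 155 under the Prr33 guide. The counts of Mybph were 45125, 40048 and 39936 against 19105, 18695 and 19758. Myog, for the myogenic factor myogenin, lies 88.8 kb from Mybph on the same strand and had a log2 fold change of -1.63. Of the 12 tested coding genes within 500 kb of Mybph 6 fell and 2 rose (median -0.25). For this and the counts of neighbours that follow, 26.6% of all tested genes fell and 25.5% rose. Mybpc1 (ENSMUSG00000020061) occupies 88518279 to 88605152 of chromosome 10 (minus strand), where 6 of 8 tested coding genes within 500 kb rose and 1 fell (median 0.31, highest 0.54). Obsl1 (ENSMUSG00000026211) occupies 75479310 to 75506452 of chromosome 1 (minus strand), among genes of which 11 of 21 fell and 3 rose, among them the sarcomere genes Speg (-0.56) and Des (-1.11) at 47.0 and 110.7 kb. Around Neb 4 of 6 neighbours fell and 2 rose (median -0.56), around Ttn 1 of 7 fell and 2 rose (median 0.12), and around Nebl 0 of 4 fell and 1 rose (median 0.25). The other genes, Myom1 on chromosome 17 (71002633 to 71126856), Myom2 on chromosome 8 (15057653 to 15133541) and Myom3 on chromosome 4 (135759715 to 135815564), had neighbour medians of -0.21, -0.29 and -0.05. The medians of the 6 chromosomes that carry the 9 genes lay between -0.04 and 0.06.

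The sequences before the starts of the 2 genes with the deepest falls and of the gene with the highest rise are shown because the groups separate most clearly for them. Each is the 250 bases upstream of the RefSeq start (GRCm38.p6), 5′ to 3′ on the gene's strand, at chr1:134193198-134193447 (plus) for Mybph, chr1:75506453-75506702 (minus) for Obsl1 and chr10:88605153-88605402 (minus) for Mybpc1. Capitals mark the E-box letters CANNTG, which MyoD-type factors can bind, and TATAAA, on either strand.
Mybph: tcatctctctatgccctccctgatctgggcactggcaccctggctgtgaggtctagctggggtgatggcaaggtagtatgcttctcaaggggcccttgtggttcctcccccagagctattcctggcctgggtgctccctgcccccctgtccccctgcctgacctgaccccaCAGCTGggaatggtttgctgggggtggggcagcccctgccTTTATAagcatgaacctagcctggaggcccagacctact
Obsl1: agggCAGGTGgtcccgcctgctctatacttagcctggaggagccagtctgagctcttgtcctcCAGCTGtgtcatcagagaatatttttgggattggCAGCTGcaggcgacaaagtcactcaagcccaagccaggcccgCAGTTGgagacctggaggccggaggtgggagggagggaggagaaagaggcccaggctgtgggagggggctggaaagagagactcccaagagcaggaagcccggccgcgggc
Mybpc1: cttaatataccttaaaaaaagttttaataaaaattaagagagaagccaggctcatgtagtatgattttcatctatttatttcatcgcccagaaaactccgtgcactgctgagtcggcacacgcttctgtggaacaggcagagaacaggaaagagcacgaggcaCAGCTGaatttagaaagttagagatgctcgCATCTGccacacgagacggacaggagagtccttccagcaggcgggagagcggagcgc
Mybph held 1 CANNTG, Obsl1 held 4 and Mybpc1 held 2, where 66.2% of 32851 RefSeq windows of the same length held at least 1. The E-box form CAGCTG, a subset of CANNTG, occurred 1, 2 and 1 times in the 3 sequences and in 4271 of the 32851 windows. It stood 74 to 79 bases before the start of Mybph, 148 to 153 and 182 to 187 before that of Obsl1, and 82 to 87 before that of Mybpc1. Mybph also held TATAAA, on the other strand, at 34 to 39 bases (12.4% of all windows held it). CAGCTG was present before a gene that rose as well as before genes that fell. These matches are descriptions of the letters and not of binding. Windows were matched for 7 of the 9 genes, all but Neb and Myom2. CAGCTG was absent from the windows of Ttn, Myom1 and Myom3 and from all 4 windows of Nebl. The windows of Ttn and Myom3 each held 1 match to the MEF2 motif (2.92% of all windows), and 1 CArG box (1.47%) stood in the window of Myom1, which fell, and in 1 of the 4 windows of Nebl, which rose. The RefSeq start of Myom1 lies 16924 bases inside the gene's upstream end, and that Nebl start 268608 bases inside.

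Per length, the order of the 9 genes was nearly the same in both groups. In Ctrl-gRNA the FPKM level was highest for Mybph (1029 ± 11.2; SD, n = 3, here and for the other levels in this paragraph), followed by Myom2 (216 ± 6.95), Obsl1 (81.2 ± 1.83), Myom3 (40.2 ± 1.73), Myom1 (33.9 ± 1.17), Ttn (31.1 ± 0.437), Neb (21.3 ± 0.617), Mybpc1 (1.76 ± 0.258) and Nebl (0.796 ± 0.117). No neighbours in this order overlapped. In Prr33-gRNA the levels were 437 ± 13.03, 140 ± 7.05, 44.6 ± 1.62 and 31.8 ± 0.842 for the first 4, and Ttn (27.7 ± 2.96) and Myom1 (24.7 ± 0.797) exchanged places but overlapped. Neb (16.9 ± 1.42), Mybpc1 (8.74 ± 0.147) and Nebl (1.83 ± 0.0759) followed. The range from highest to lowest narrowed from 1294-fold to 239-fold. Dividing by the longest annotated coding transcript in place of all exonic bases put Myom1 above Myom3, at 63.3 ± 2.00 against 43.9 ± 2.01 CPM per kilobase in Ctrl-gRNA (SD, n = 3 each). By that length Myom1 was also above Ttn in both groups, at 63.3 ± 2.00 against 34.4 ± 0.390 in Ctrl-gRNA and 45.8 ± 1.42 against 30.5 ± 3.32 in Prr33-gRNA (SD, n = 3 each). The place of Myom1 relative to Myom3 and Ttn thus depends on the length used.

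Set against the filament each protein binds, the structural genes did not fall in step. The summed FPKM of the 8 sarcomeric myosin heavy chain genes went from 2216 ± 17.5 to 956 ± 33.4, and that of the 3 myomesins from 291 ± 7.42 to 196 ± 8.31 (SD, n = 3 each). Myomesin per myosin heavy chain was thus 1.56-fold higher in Prr33-gRNA. Ttn per myosin heavy chain was 2.06-fold higher, at 0.0140 ± 0.000113 against 0.0290 ± 0.00386 (SD, n = 3 each). Myh3 made up most of the heavy chain sum, at 2078 ± 17.2 FPKM in Ctrl-gRNA and 869 ± 32.2 FPKM in Prr33-gRNA (SD, n = 3 each). Ratios to that sum therefore mainly read Myh3. Neb per skeletal and cardiac alpha-actin (Acta1 and Actc1 summed) was 1.31-fold higher, at 0.00254 ± 0.000127 against 0.00333 ± 0.000291 (SD, n = 3 each). The summed actins went from 8406 ± 263 to 5083 ± 116 FPKM, and Acta1 alone from 6386 ± 238 to 4775 ± 112 FPKM (SD, n = 3 each). The log2 fold change of Acta1 was -0.43, beside -0.34 for Neb. This ratio therefore holds for the sum, and Neb per Acta1 alone was not tested. Obsl1 per Ttn was lower in Prr33-gRNA, going from 2.61 ± 0.0898 to 1.63 ± 0.246 (SD, n = 3 each). Of the 10 ratios computed, 9 did not overlap between groups and had an exact two-sided permutation p of 0.1 (0.111 after Benjamini-Hochberg adjustment), and the share of Myom1 was the exception. These ratios hold within a library and do not depend on library scaling. They do compare genes of unlike length, such as Neb with 26675 bases and Acta1 with 1536. The median log2 fold change was 0.11 in the longest bin of coding genes and -0.09 in the shortest. The part of gene length in these ratios was not tested.

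**Figure D3:**
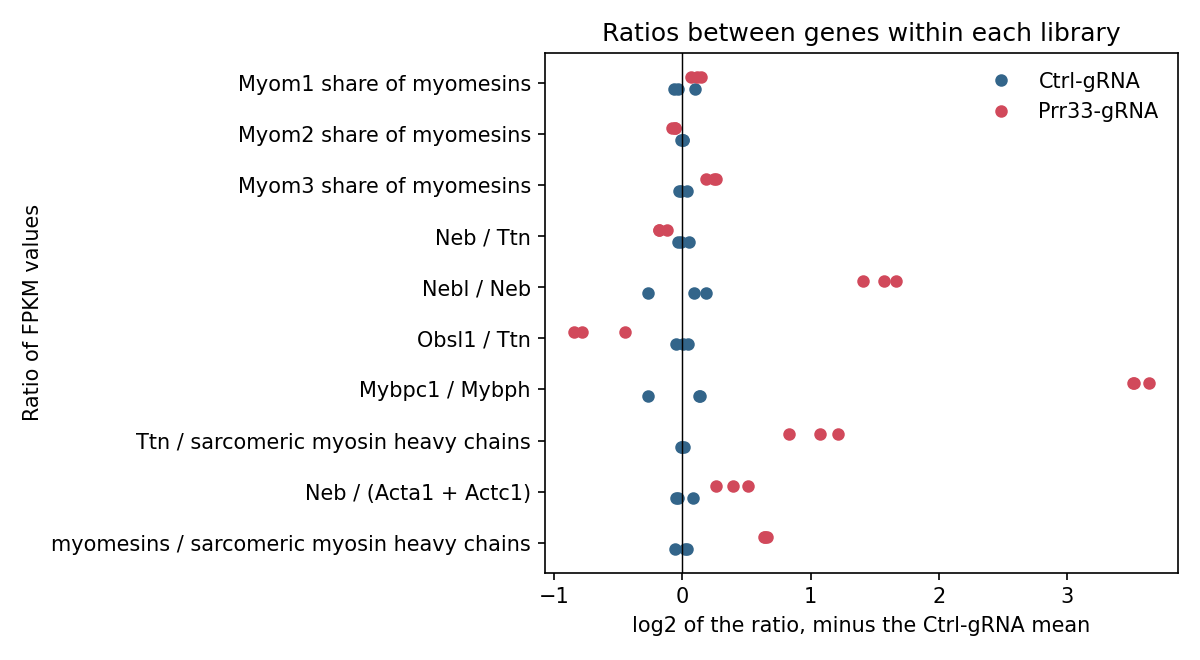
Ratios of deposited FPKM values within each library, as log2 minus the Ctrl-gRNA mean, with 3 points per group. Mybpc1 per Mybph and Nebl per Neb lie farthest to the right in Prr33-gRNA, Obsl1 per Ttn lies to the left, and the Myom1 share overlaps.

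The heavy chains themselves were led by embryonic Myh3, which fell from 12684 ± 68.7 to 5282 ± 183 CPM (SD, n = 3 each). In all 6 of the 8 genes fell, where 26.6% of all tested genes did. Myh7 (-4.09) and Myh6 (-4.08), the slow and the heart heavy chain, fell furthest, and adult fast Myh4 rose (2.38). These genes are similar copies, so reads may have been shared between them. Myh7b also rose (0.24), a call that was lost without Ctrl-gRNA replicate 1 or 3 or Prr33-gRNA replicate 2 or 3 and in DESeq2.

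Genes for proteins that bind titin or assemble the M-band mostly fell. Of 16 tested genes of 17, 9 fell, 3 rose and 4 did not pass, with a median log2 fold change of -0.31. For this list and the next, 26.6% of all tested genes fell and 25.5% rose. Tcap, which caps titin at the Z-disc, fell from 25.6 ± 3.28 to 5.22 ± 0.531 CPM (SD, n = 3 each; -2.29). The ankyrin-repeat genes Ankrd1 and Ankrd2, whose products bind the spring region of titin, fell by 0.91 and 0.80 on the log2 scale, from 1599 ± 18.04 to 852 ± 15.8 CPM and from 74.0 ± 7.67 to 42.6 ± 3.79 CPM (SD, n = 3 each). Unc45b, the myosin chaperone, fell from 132 ± 0.983 to 94.9 ± 2.53 CPM (SD, n = 3 each; -0.48). The 3 that rose were Lrrc39 (0.40), a myosin-binding protein of the M-band, Ckm (0.24), the creatine kinase that docks there, and Fhl1 (0.22). Smyd1, Nbr1, Trim54 and Capn3 did not pass, with log2 fold changes of -0.04, -0.01, -0.08 and -0.40, although Trim54 passed as lower without Ctrl-gRNA replicate 3. Among 10 tested relatives with immunoglobulin domains 7 fell, 1 rose and 2 did not pass, with a median of -0.62. Mylk2, the skeletal myosin light chain kinase, fell from 38.5 ± 2.08 to 12.4 ± 1.90 CPM (SD, n = 3 each; -1.62), Palld, for the actin-binding palladin, fell from 431 ± 9.62 to 247 ± 9.96 CPM (SD, n = 3 each; -0.80), and Mylk4 rose (0.60). Mylk (0.27) and Myot (-0.40) did not pass, but without Prr33-gRNA replicate 3 Mylk was called higher and Myot lower.

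**Figure D4:**
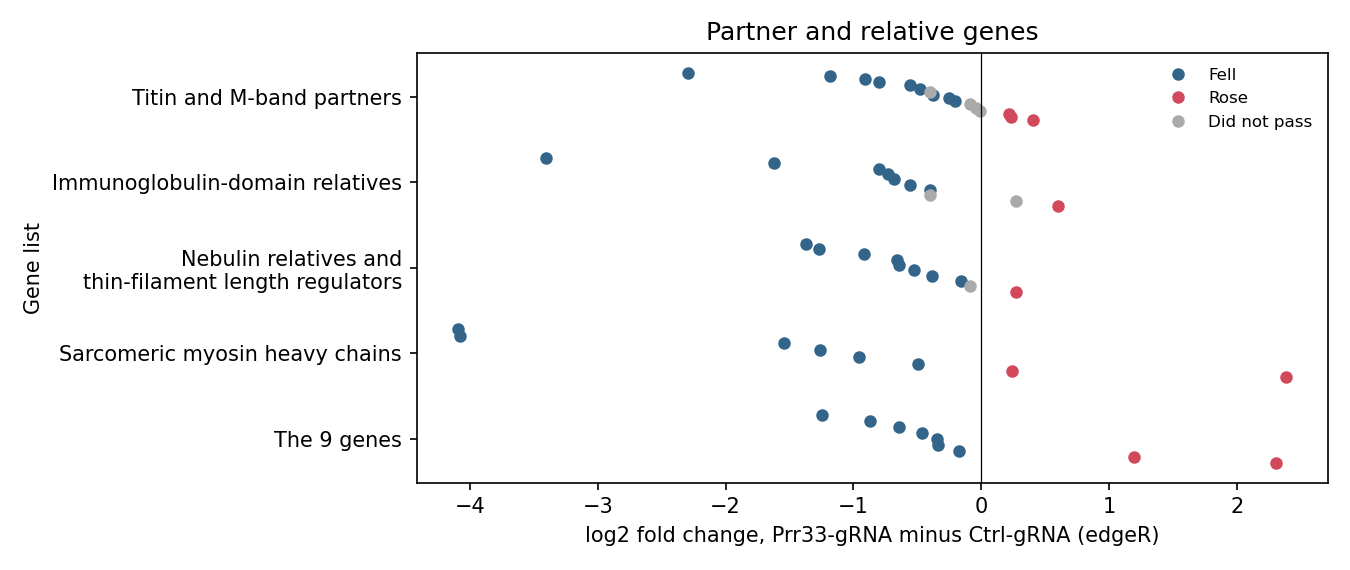
Log2 fold changes of the tested genes in 4 lists of partners and relatives, and of the 9 genes, each point a gene (blue fell, red rose, grey did not pass). Falls outnumber rises in each row, with 9 and 3, 7 and 1, 8 and 1, 6 and 2, and 7 and 2 from top to bottom. Over all tested genes 26.6% fell and 25.5% rose.

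Gene length moved with the comparison. With 12067 tested coding genes split by length into 10 bins of like size, the median log2 fold change went from -0.09 in the shortest bin to 0.11 in the longest, where 43.7% rose and 23.5% fell. Ttn, Neb, Nebl and Myom1 are in the longest bin, and Ttn, Neb and Myom1 fell where the median of that bin was above 0. Within Prr33-gRNA, replicate 2 had a median deviation from the group mean of 0.04 in the shortest bin and -0.04 in the longest, and replicate 3 had -0.02 and 0.04. Ttn deviated by -0.18 and Neb by -0.14 in replicate 2, and by 0.12 and 0.10 in replicate 3, on the same log2 scale. Nebl, also in the longest bin, deviated by -0.02 and -0.04. In the control libraries the medians of the shortest bin were 0.028, -0.014 and -0.012 for replicates 1, 2 and 3. Those of the longest bin lay between -0.0014 and 0.00018. The part of gene length in the values of Ttn and Neb, and in the ratios that use them, was not tested.

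**Figure D5:**
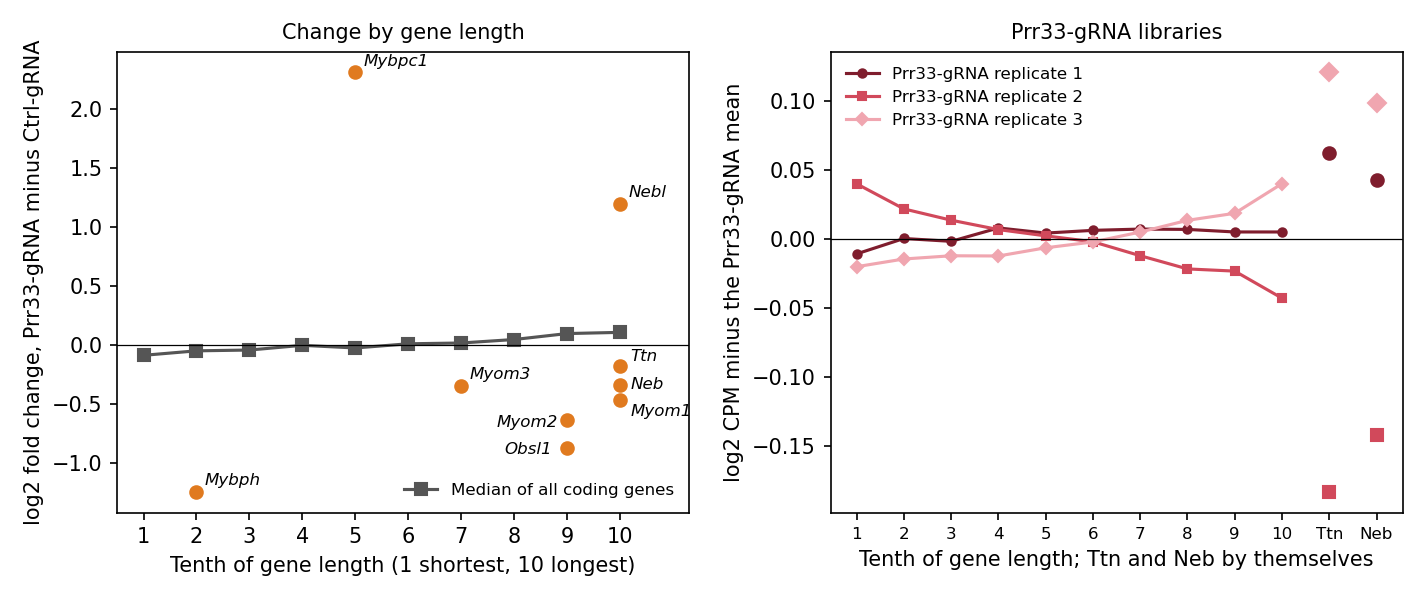
Left, log2 fold change by gene length bin (1 shortest, 10 longest) for the median coding gene (grey) and the 9 genes (orange); right, median deviation of each Prr33-gRNA library from its group mean by length bin, with Ttn and Neb at the far right. Replicate 2 slopes from 0.04 to -0.04 with length and replicate 3 from -0.02 to 0.04, and Ttn and Neb are lowest in replicate 2.

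By a fixed rule, the genes whose level over the 6 libraries was most like that of the strongest riser and the strongest faller were listed. For Mybpc1 they were Fgd4, Ncapd3, Kbtbd11, Alcam and Dpyd, with Pearson correlations of log2 CPM from 0.9987 to 0.9997 and log2 fold changes of 2.49, 0.64, 1.06, 1.93 and 2.30. For Mybph they were Zcchc24, Itm2b, Csrp3, Ogfr and Isg15, with correlations from 0.9998 to 0.9999 and log2 fold changes of -0.95, -1.03, -2.40, -1.39 and -5.62. Csrp3 encodes a muscle LIM protein of the Z-disc. The 6 points form 2 groups, so the correlation mainly reads the difference between them, and 212 and 606 of 10134 genes compared exceeded 0.99.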

How the data were processed

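RNA-seq of 3 Ctrl-gRNA and 3 Prr33-gRNA libraries of C2C12 cells was used, grouped by sample title. Per the labels' protocols, TRIzol was used to extract total RNA, and a NEBNext Ultra kit to make libraries. The authors deposited whole-number counts per gene, not normalized, and a second table of FPKM values. The submitters' processing notes name featureCounts 1.5.0-p3, HISAT2 2.0.5, CASAVA and the mm10 build, and give no strand setting.

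Counts were filtered with filterByExpr, scaled by TMM and compared by edgeR 4.0.16 (robust quasi-likelihood fit and test; R 4.3.3), with 2 groups and no covariate. P-values were adjusted over 14651 genes by Benjamini-Hochberg, threshold 0.05. The SE is the absolute log2 fold change over the square root of F. Ratios used FPKM with exact permutation tests (scipy 1.17.1). On simulated counts (14444 genes tested, 50 changed per fold) edgeR found 24 of the 1.25-fold, 31 of the 1.5-fold, 40 of the 2-fold and 45 of the 4-fold changes, beside 9 false calls. Few genes were changed in the simulation, while 52.1% of tested genes were called in the data, so these rates may not hold for the data. Chi-square per gene between libraries of a group was 2.76 to 5.32, so none was counted as a duplicate. The reads carry no molecular identifiers as far as the labels say, so the floor of 3 counts covers counting error only.

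The 9 genes and the lists of partners, relatives and markers were chosen with earlier results of these data known. Named genes were the 9, Prr33, up to 4 genes per partner list with the lowest adjusted p, genes used in ratios, and the 5 coding genes with a mean of at least 5 CPM best correlated with the strongest riser and faller. A gene that this rule names is not reported here. Neighbours, overlapping genes and other list members were named after their values were seen. Gene positions equal those of GENCODE M21; promoter windows are from RefSeq (GRCm38.p6). Alternatives were RLE factors, library size alone, DESeq2 1.42.0, limma-voom (limma 3.58.1), no filter, at least 1 CPM in 3 libraries, a replicate block, leaving out each library, limma on log2 FPKM with 1 or 0.1 added, coding genes only, and an adjusted p below 0.01. Figures were drawn with matplotlib 3.10.9.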

Additional observations from a re-analysis of the deposited data

How the results depend on the processing

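Of the 9 genes 8 kept their direction and their call in each of 17 alternatives, with log2 fold changes from -1.25 to -1.15 for Mybph, 1.82 to 2.40 for Mybpc1 and 0.66 to 1.30 for Nebl. The values 1.82 and 0.66 came from log2 FPKM with 1 added, beside mean Ctrl-gRNA levels of 1.76 and 0.80 FPKM. With single libraries left out the ranges were 2.19 to 2.38 and 1.09 to 1.30. Ttn kept its direction but lost its call in 9: -0.0868 under library-size scaling, -0.17 in DESeq2, -0.18 in limma-voom, -0.17 on either FPKM scale, -0.18 at an adjusted p below 0.01, and -0.2323 to -0.0868 when single libraries were left out, where the call was lost in 3 of 6. The number of the 9 that fell was then 6, and 2 rose throughout. Library-size scaling moved the median of all tested genes to 0.09 and the share of calls that were higher from 48.96% to 61.7%; the direction of each of the 9 was the same. Libraries of equal replicate number showed no joint deviation from their group means (correlations -0.01, -0.01 and 0.02). No label says that they share a culture or a day, but these correlations cannot show that nothing is shared. With a replicate block Ttn gave -0.18 (edgeR adjusted p = 1.42e-04) and Neb -0.34. In that setting 3811 genes were higher and 3975 lower, beside 3740 and 3899. Among the heavy chains 1 gene rose in place of 2 in DESeq2, on either FPKM scale and at an adjusted p below 0.01, and 1 to 2 with single libraries left out. Among immunoglobulin-domain relatives 2 rose in place of 1 under library-size scaling, and 1 to 2 with single libraries left out. Where no value shows it, the cause was not tested. With 3 libraries per group a ratio cannot reach an exact p below 0.1, and gene counts do not resolve isoforms.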
